A study of Mus musculus with 19 samples.

Results

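The 676 sequences described here were read from sperm small RNA and were chosen by 4 rules. Each was a distinct sequence of 15 to 45 nt, ended in CCA, had 10 or more reads in at least 4 of the 19 libraries, and matched no annotated small RNA transcript on its own strand with at most 1 mismatch. The transcripts were the GENCODE M21 miRNA, rRNA, mitochondrial rRNA, mitochondrial tRNA, snoRNA, snRNA, scaRNA, ribozyme and misc_RNA entries. Of the 158815 distinct sequences that reached the read minimum, 915 ended in CCA. A small RNA transcript matched 239 of these, of which 77 were on rRNA, 75 on mitochondrial rRNA, 44 on miRNA hairpins and 18 on mitochondrial tRNAs, and the other 676 are the members. They made up 0.587% of the 115217 unmatched sequences. The read minimum used the counts of all 19 libraries, so the levels below describe sequences that had been picked for being present. The 64 members just inside the read minimum had a median level of 0.127 RPM (RPM, the reads of a sequence scaled to equal total reads per library), and the 89 sequences just outside it had a median of 0.118 RPM.

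The mice were wild type C57BL/6J males, and all samples were sperm RNA of small size cut from a gel. From 8 weeks of age the males received dicyclohexyl phthalate (DCHP), a plasticizer, by daily oral gavage for 4 weeks, or the corn oil vehicle alone. The groups were PANDORA-seq of control sperm (n = 4) and of DCHP sperm (n = 5), and traditional small RNA sequencing of control sperm (n = 5) and of DCHP sperm (n = 5). In PANDORA-seq the RNA is treated before library construction with a pair of enzymes. AlkB takes methyl marks off bases that would block the reverse transcriptase, and T4PNK leaves the RNA termini in a form to which adapters ligate. The labels and the study's methods give the order of both enzymes differently. DCHP gavage is the labelled treatment of each of the 19 libraries, so control status rests on the library names and the study's methods. The study describes its PANDORA-seq replicates as biological replicates of mice, while the labels do not tie libraries to animals, and p-values measure the spread between these libraries. Total reads ran from 21588335 to 56506344 per library. The sperm and testis marker hairpins (Mir34b, Mir34c and the Mir449 family) summed to 87.1 to 462 RPM in traditional libraries, with reads of all 5 hairpins, and 0.925 to 6.48 RPM in PANDORA-seq libraries, with reads of 4. In traditional libraries the epididymal list was at 553 to 4430 RPM, smooth muscle at 1366 to 6928 RPM and blood at 37.8 to 185 RPM. The liver hairpin Mir122 was at 806 to 70134 RPM in traditional control and 783 to 10008 RPM in traditional DCHP libraries. In PANDORA-seq libraries these 4 lists were at 2.63 to 42.8, 2.60 to 112, 0.634 to 2.56 and 3.74 to 129 RPM. Their part in the results below was not tested.

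A mature tRNA ends in CCA, which a dedicated enzyme adds after transcription because the mouse nuclear genes do not encode it. The T arm, near the 3′ end, carries a conserved GTTC stretch followed by an adenosine that can be methylated. Fragments that run from the T loop or the anticodon to the CCA are the usual 3′ tRNA-derived small RNAs of sperm, and an unmatched read ending in CCA is therefore a candidate for one. The same 3 letters also occur inside other RNAs, where a read may stop by cleavage.

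The 676 members shared 320 different 3′ ends, where an end is the last 15 bases. The 6 ends with the highest summed level are numbered 1 to 6 in that order, and members are numbered by their own level. The highest sequences of these ends, with the terminal CCA in capitals, are shown because they held a large part of the signal:
member 1 (end 1): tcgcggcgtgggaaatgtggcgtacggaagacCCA
member 3 (end 1): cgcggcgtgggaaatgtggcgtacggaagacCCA
member 4 (end 1): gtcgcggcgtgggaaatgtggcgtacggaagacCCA
member 2 (end 2): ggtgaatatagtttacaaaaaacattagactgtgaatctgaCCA
member 9 (end 3): agcaggacggtggCCA
a longer member of end 3: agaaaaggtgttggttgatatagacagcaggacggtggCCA
member 5 (end 4): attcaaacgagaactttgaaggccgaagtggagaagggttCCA
member 8 (end 5): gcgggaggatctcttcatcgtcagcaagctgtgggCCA
member 12 (end 5): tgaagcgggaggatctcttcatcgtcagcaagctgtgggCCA
member 10 (end 6): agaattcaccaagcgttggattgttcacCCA
member 7 (end 8): aaatctcgcgccgggccgtacCCA
Members 1, 3 and 4 differed only in how many bases they carried at the 5′ end, and members 8 and 12 likewise. The 12 highest members held 57.5% of the summed level of all 676, and member 1 alone held 26.3%.

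Few members of 23 nt or longer had the layout of a tRNA 3′ end, and shorter members could not be screened in this way. In a tRNA that carries its CCA, the T loop adenosine is the 19th base from the 3′ end, so a fragment of 23 nt or longer should show TTCGA or TTCAA ending at that base. Of the 583 members of 23 nt or longer, 3 had either motif in place on their own strand (0.515%). The same place held it in 223 of 91274 other unmatched sequences of that length (0.244%). It was held by 0 of 15 CCA-ending sequences of that length that matched mitochondrial tRNAs. The 3 sequences shared 1 end, and the motif is in capitals here:
32 nt: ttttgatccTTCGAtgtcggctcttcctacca
31 nt: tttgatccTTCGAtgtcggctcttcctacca
23 nt: TTCGAtgtcggctcttcctacca
Their levels averaged 0.770, 0.335 and 0.580 RPM in PANDORA-seq and 0.0309, 0.0123 and 0.0257 RPM in traditional libraries. They also lacked the GG that precedes TTC in the usual T arm. RefSeq listed 408 nuclear tRNA loci for GRCm38, and a sequence could be read for 13 of them. With CCA added, 2 members lay within 1 mismatch of one of these 13, and neither ended in the added tail. A 33-nt member covered bases 1 to 33 of the valine tRNA gene n-TVcac9, at the 5′ side of the molecule. A 15-nt member covered bases 58 to 72 of the alanine tRNA gene n-TAagc16, which is 72 bases long before the tail. The other nuclear tRNA genes were not analysed here. The set is therefore called by its rule, CCA-ending sequences, and not by the name of tRNA fragments.

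Reads with a T-arm motif seldom ended in CCA. The motif GGTTCNA followed by any 2 bases and CC, searched on the reads’ own strand, was in 1378281 unmatched reads of the 19 libraries, and 304008 of these stopped 22 bases after its start, where the tRNA gene sequence ends. A further 523327 had an added C, 204882 had CC, and 161 had CCA. No member was among the sequences of those 161 reads. The share that stopped with no tail was 27.5% ± 7.45 (SD, n = 4) in PANDORA-seq control libraries and 24.3% ± 3.30 (n = 5) in DCHP libraries. It was 17.7% ± 2.43 (n = 5) and 13.3% ± 2.48 (n = 5) in traditional libraries, and each of the 9 PANDORA-seq libraries (20.5% to 34.8%) lay above all 10 traditional ones (10.5% to 19.98%). The share with C alone was 38.8% to 49.5% in PANDORA-seq and 19.5% to 36.7% in traditional libraries. The share with CC was 8.85% to 14.4% in PANDORA-seq and 11.3% to 34.4% in traditional libraries. The full CCA made up at most 0.0626% of these reads in any library. The study counted 3′ tRNA-derived small RNAs with a CCA end as a class in both methods, by its own annotation. Settings of adapter removal are not given, and their part in where these reads end was not tested.

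Of the 676 members, 4 held GGTTCGA or GGTTCAA anywhere, and they are shown with that motif in capitals:
37 nt: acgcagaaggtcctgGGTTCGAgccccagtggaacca
39 nt: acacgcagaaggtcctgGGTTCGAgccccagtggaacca
36 nt: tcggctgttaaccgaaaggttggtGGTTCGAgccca
30 nt: aagaacgaaagtcggaGGTTCGAagaccca
In the first pair the motif started 22 bases from the 3′ end, which is the place where reads with no added tail stopped. At that end 927 reads stopped with CCA and 28894 reads with the same 12 bases before CCA ran on past it. In the 36-nt sequence the motif started 12 bases from the end, and 22155 reads ran past its CCA while 278 stopped there. The 30-nt sequence was of another kind. Its 12 bases before CCA ended 271578 reads, 557 reads carried CCA there, and 8 ran past. A further 5478048 reads went on there for at least 4 bases that did not start with CCA. The 37-nt member was at 1.41 RPM in PANDORA-seq control, 0.886 in PANDORA-seq DCHP, 0.271 in traditional control and 1.06 in traditional DCHP libraries. The other 3 members were at 0.0286 to 1.22 RPM in the 4 groups.

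What follows the CCA in longer reads was examined for each end. The 12 bases before each CCA were looked up in all reads, and the reads that held at least 4 bases beyond them were sorted by their next 3 bases. At 239 of the 320 ends, most of these longer reads had CCA followed by further bases, and those ends held 530 members and 85.002% of the summed level. At 81 ends most longer reads had other bases, and these held 146 members and 14.998% of the level. At 234 ends, with 461 members and 40.1% of the summed level, more reads ran past the CCA than stopped at it. At end 1, the highest, most reads holding the CCA stopped there. The median end had 21.1% of its CCA-holding reads stop at the CCA. A string of 12 bases can occur in more than 1 RNA, so these counts describe the string.

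CCA was the least common of the endings that start with CC. Among the unmatched sequences 676 ended in CCA, 1186 in CCC, 1236 in CCG and 1834 in CCT. CCA made up 13.7% of these 4 endings, and 16.3% of the same 4 triplets counted at every position of the unmatched sequences. Of the 676 members, 172 (25.4%) were 1 base away from a sequence at least 10 times higher, and 34.1% of the other unmatched sequences were. The higher sequence also ended in CCA for 123 of the 172, and it had another ending for 49. Within the set itself, 99 members were such single-base variants of a higher member, of which 36 belonged to member 2 and 34 to member 1.

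An exact match on the sense strand of some GENCODE transcript was found for 137 members, 13 more matched on the antisense strand alone, and 526 matched neither. The 28S and 45S rRNAs and the genome itself were not searched here. Lars2, the mitochondrial leucyl-tRNA synthetase, held 32 of the members, AA474408 held 17, Akr1b7 held 15 and Neat1 held 15. For 8 members the part before CCA was found in a small RNA transcript that does not go on there with CCA. Of these, 4 were in mt-Th, the mitochondrial histidine tRNA, and 1 was in Snord57, which goes on with CC and ends.

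The summed level of all members was higher in PANDORA-seq than in traditional libraries. Over the 146 members of ends where most longer reads had other bases than CCA, the ratio of PANDORA-seq to traditional was 0.169 in control and 0.133 in DCHP sperm. End 2 held 102 of the 139 RPM of these 146 members, averaged over both methods. That split was chosen after the values had been seen. Members of 39 to 45 nt, which include end 2, also had lower mean sums in PANDORA-seq. These were 128 against 208 RPM in control and 189 against 289 RPM in DCHP sperm, with overlapping ranges. Over all 676 the level was 1480.3, 1427, 897 and 1255 RPM in the 4 PANDORA-seq control libraries and 976, 1643, 1031, 1259.8 and 1501 RPM in the 5 PANDORA-seq DCHP libraries. In traditional libraries it was 480.4, 476, 609.8, 416 and 635 RPM for control and 681, 621, 540.4, 621 and 731 RPM for DCHP. Every PANDORA-seq library was above every traditional one, and control and DCHP libraries overlapped within each method. The means were 1265 ± 263 and 1282 ± 290 RPM in PANDORA-seq and 523 ± 94.2 and 639 ± 71.8 RPM in traditional libraries (SD). The ratio of PANDORA-seq to traditional was 2.42 in control and 2.01 in DCHP sperm, and the ratio of DCHP to control was 1.01 in PANDORA-seq and 1.22 in traditional libraries. No test was run on the sum, since the members were picked on these counts. The study also divided by miRNA reads, but counted them by its own annotation, while here they were the reads matched to hairpins. Per 1000 of these miRNA reads, the sums were 99.98 ± 27.1 and 110.4 ± 30.9 in PANDORA-seq and 8.14 ± 3.25 and 9.59 ± 2.84 in traditional libraries. Traditional control library 2 was at 2.81, and the other traditional control libraries were at 7.80 to 11.4. The make-up of these miRNA reads differed between the methods, as given below with the tests of single sequences. A PANDORA-seq library held reads of 428 to 479 of the members, and a traditional library held reads of 481 to 561.

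Much of this excess lay at end 1, with 44 members. End 1 summed to 716 RPM in PANDORA-seq control and 673 RPM in PANDORA-seq DCHP libraries. It summed to 52.9 and 51.1 RPM in traditional control and DCHP libraries. By mean RPM, 326 members (48.2%) were at least 2-fold higher in PANDORA-seq, 316 (46.7%) were at least 2-fold higher in traditional libraries and 34 lay between. The other unmatched sequences split into 36.8% and 54.5%. The 326 members had 113 ends and a median length of 34 nt, and 140 of them were 32 to 38 nt long. The 316 members had 205 ends and a median length of 28 nt, and 14 of them were 32 to 38 nt long. No read of 68 members was seen in any PANDORA-seq library, no read of 13 in any traditional library, and 88 members had reads in all 19 libraries. The 68 and the 13 passed the read minimum through the other method alone, so these counts are a description. Of all 158815 sequences of the read minimum, 145416 had reads in PANDORA-seq and 157107 in traditional libraries. Among the 676 members these were 608 and 663. The median member was at 0.238 RPM in PANDORA-seq and 0.240 RPM in traditional libraries.

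The member reads differed in length between the methods, and ends 1 and 2 held much of them. End 1, of 32 to 40 nt, made up 54.3% of the member level in PANDORA-seq libraries. End 2, of 42 to 45 nt, made up 34.3% in traditional libraries. In PANDORA-seq the 166 members of 32 to 38 nt held 67.3% ± 7.24 of the member reads in control and 62.7% ± 6.06 in DCHP libraries, against 18.1% ± 10.5 and 12.3% ± 7.79 in traditional libraries. The lowest PANDORA-seq library (56.8%) was above the highest traditional one (35.9%). The 130 members of 39 to 45 nt held 10.3% ± 1.35 and 14.8% ± 2.35 in PANDORA-seq and 38.3% ± 12.6 and 44.7% ± 8.83 in traditional libraries. The 254 members of 24 to 31 nt held 15.7% ± 5.14 and 15.5% ± 3.89 in PANDORA-seq and 31.97% ± 6.69 and 31.9% ± 4.42 in traditional libraries. The members of 15 to 23 nt held 6.69% and 6.95% against 11.6% and 11.2%.

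Single lengths stood out in both methods, each largely through 1 member. Member 1, of 35 nt, averaged 480 RPM in PANDORA-seq control and 449 RPM in PANDORA-seq DCHP libraries. In traditional control and DCHP libraries member 2, of 44 nt, averaged 145 and 201 RPM. Member 6, of 28 nt, averaged 34.4 and 49.98 RPM there. At 35 nt the members summed to 518 ± 153 RPM in PANDORA-seq control and 486 ± 180 RPM in DCHP libraries, against 44.5 ± 29.8 and 35.5 ± 31.7 RPM in traditional libraries. At 44 nt the order was the opposite, with 11.4 ± 4.27 and 21.2 ± 4.78 RPM in PANDORA-seq and 172 ± 95.4 and 235 ± 65.4 RPM in traditional libraries. At 28 nt the sums were 4.44 ± 0.677 and 4.66 ± 1.37 RPM in PANDORA-seq and 59.7 ± 12.3 and 81.6 ± 19.7 RPM in traditional libraries. The read-weighted mean length was nevertheless close in the 4 groups, from 33.5 ± 0.438 nt in PANDORA-seq control to 34.6 ± 1.38 nt in traditional DCHP libraries.

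End 1 had 44 members of 32 to 40 nt and made up 54.3% of the member level in PANDORA-seq and 8.95% in traditional libraries. It had no exact match in the transcripts used. Member 1 was at 565, 594, 275 and 487 RPM in PANDORA-seq control libraries and at 293, 689, 327, 387 and 547 RPM in PANDORA-seq DCHP libraries. In traditional libraries it was at 63.0, 9.19, 39.1, 22.7 and 13.2 RPM for control and 4.76, 63.9, 12.2, 17.2 and 9.58 RPM for DCHP. All 9 PANDORA-seq values were above all 10 traditional ones, and the mean was 18.2-fold higher. Around this end 252978 reads stopped before the CCA, 165295 after the first C, 2052 after CC and 254632 after CCA, while 17509 ran past it. Of the reads holding the CCA 93.6% stopped there. Of the longer reads 95.3% had CCA next.

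Among the 6 numbered ends, only end 2 had a higher summed level in traditional than in PANDORA-seq libraries. Its 36 members of 42 to 45 nt made up 34.3% of the member level in traditional and 0.382% in PANDORA-seq libraries. Member 2 was at 0.904, 3.63, 1.92 and 2.74 RPM in PANDORA-seq control libraries and 8.96, 3.51, 4.85, 8.48 and 5.69 RPM in PANDORA-seq DCHP libraries. It was at 84.4, 125, 145, 83.5 and 286 RPM in traditional control libraries and 279, 146, 149, 195 and 237 RPM in traditional DCHP libraries. The ranges of the methods did not overlap. After GG at the 5′ end, member 2 held bases 1 to 39 of mt-Th, which lies at chrM:11546-11612 on the plus strand of GRCm38 and is 67 bases long without its tail. There the gene goes on with CAACAG, shown in capitals beside the member with its CCA in capitals:
mt-Th bases 1 to 45: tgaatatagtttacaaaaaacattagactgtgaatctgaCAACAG
member 2: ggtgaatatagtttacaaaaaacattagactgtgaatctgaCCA
The CCA of member 2 thus lay inside the length of mt-Th and not at its 3′ end.

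Member 2 was 1 base away from a sequence with 2183478 reads, against 63827 reads of its own. The change was A43C, counted from 1 at the 5′ end of the 44-nt sequence, where the abundant sequence has the first base named. The abundant sequence, with base 43 in capitals, and its level are given for comparison:
44 nt with the mt-Th base: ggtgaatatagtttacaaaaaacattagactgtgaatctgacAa
The abundant form averaged 1341 RPM in PANDORA-seq control, 4958 RPM in PANDORA-seq DCHP, 2344 RPM in traditional control and 3117 RPM in traditional DCHP libraries. Member 2 made up 0.132% to 0.580% of both forms in PANDORA-seq control libraries and 0.0773% to 0.338% in DCHP libraries. It made up 5.13% to 6.18% in traditional control and 4.75% to 7.43% in traditional DCHP libraries. The share of the changed base was thus higher in every traditional library than in any PANDORA-seq library, while the abundant form itself overlapped between the methods (329 to 9379 RPM and 1284 to 4615 RPM). This comparison was made after the values had been seen and was not tested.

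Ends 3, 4 and 6 were places where few of the CCA-holding reads stopped. End 3 had 20 members of 15 to 41 nt, and 3.03% of its CCA-holding reads stopped at the CCA, since 951492 ran past it and mostly went on with TGG. At end 4, with 9 members of 35 to 44 nt, 4.07% stopped and 630690 ran past. At end 6, with 19 members of 15 to 44 nt, 3.28% stopped and 504591 ran past. End 3 summed to 60.3 ± 25.5 and 70.6 ± 12.8 RPM in PANDORA-seq and 14.6 ± 5.61 and 15.4 ± 6.22 RPM in traditional libraries. End 4 summed to 39.5 ± 9.18 and 70.5 ± 20.1 RPM in PANDORA-seq and 10.5 ± 5.86 and 11.6 ± 3.70 RPM in traditional libraries. End 6 summed to 26.4 ± 6.44 and 34.4 ± 15.3 RPM in PANDORA-seq and 12.1 ± 2.52 and 14.4 ± 6.82 RPM in traditional libraries. At ends 3 and 4 every PANDORA-seq library was above every traditional one, and at end 6 the PANDORA-seq DCHP range (14.1 to 54.7 RPM) overlapped the traditional DCHP range (4.67 to 23.3 RPM).

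All 19 members of end 6 matched Lars2 exactly, and of these 17 also matched AA474408, 12 Gm15564 and 2 Arhgap6. Member 10 lay in exon 21 of Lars2 at chr9:123462047-123462077, plus strand, outside the coding part. The same 31 bases lay in AA474408 at chr7:110059709-110059739 on the minus strand, so the source could not be told apart from these sequences. The rRNAs and the genome named above as not searched were not compared with end 6 either. Whether its reads come from such an rRNA and not from Lars2 was therefore not tested. Member 10 was at 6.53, 15.1, 15.1 and 9.82 RPM in PANDORA-seq control and 18.97, 3.78, 26.1, 12.6 and 2.68 RPM in PANDORA-seq DCHP libraries. It was at 0.881 to 2.28 RPM in traditional control and 0.495 to 3.20 RPM in traditional DCHP libraries.

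End 5 lay in a messenger RNA. All 13 members, of 16 to 45 nt, matched Akr1b7 exactly, an aldo-keto reductase known as the mouse vas deferens protein. Member 8 crossed the junction of exons 2 and 3 in the coding part, with 28 bases at chr6:34415460-34415487 and 10 bases at chr6:34416118-34416127, plus strand. Member 12 began 4 bases upstream, at chr6:34415456-34415487 and the same second segment. Member 8 was at 33.5, 14.5, 10.7 and 19.1 RPM in PANDORA-seq control and 8.64, 51.1, 6.62, 20.2 and 32.2 RPM in PANDORA-seq DCHP libraries. It reached 1.67 RPM at most in traditional control and 1.02 RPM in traditional DCHP libraries. End 5 summed to 37.997 ± 18.4 and 50.4 ± 37.8 RPM in PANDORA-seq and to 1.80 ± 1.20 and 1.18 ± 0.961 RPM in traditional libraries. At this end 16553 reads stopped at CCA and 9290 ran past it.

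Sequences higher in traditional libraries were mostly 24 to 31 nt long. Of the 316 members at least 2-fold higher there, 170 had that length and 148 of these (87.1%) began with T. Of the 32292 other unmatched sequences of that length that were as much higher in traditional libraries, 72.3% began with T. Among the 75 members of that length that were at least 2-fold higher in PANDORA-seq, 40 (53.3%) did. No genome was searched, so whether members 6 and 11 come from the mouse was not checked, and their sequences are not shown. Member 6, of 28 nt, was at 23.8, 33.5, 45.1, 36.8 and 32.7 RPM in traditional control and 44.2, 30.5, 53.8, 48.4 and 73.0 RPM in traditional DCHP libraries. In PANDORA-seq libraries it was at 0.151 to 1.43 RPM. Member 11, of 36 nt, was at 4.79 to 24.9 RPM in traditional control and 7.27 to 20.1 RPM in traditional DCHP libraries, and at 0.126 to 1.41 RPM in PANDORA-seq libraries.

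Single sequences were compared between methods with edgeR's quasi-likelihood test on the counts, with total miRNA reads as library size and Benjamini-Hochberg adjustment over the table. Sequences were called at a fold change over 2 with an adjusted p under 0.1. The table held the 20000 highest sequences of each method, and 102 of the 676 members were in it. In control sperm 99 of the 102 were called, 77 higher and 22 lower in PANDORA-seq. Of all sequences tested 89.1% were called, 56.1% higher and 33% lower. In DCHP sperm the same numbers of members were called, against 91.1% of all, 58% higher and 33.1% lower. Members entered this table by being high in 1 method, so the counts are a description. The denominator set the direction of many calls. A second miRNA count took only reads of 20 to 24 nt, on hairpins whose reads are mostly of that length. In each PANDORA-seq library it held a small part of the miRNA reads. These were 5910 to 47086 reads per library, where the miRNA totals were 283683 to 758477. In each traditional library it held most miRNA reads, 959502 to 8146881 reads with totals of 1119719 to 8830574. The median log2 difference of all sequences was 2.75 in control and 3.23 in DCHP sperm per miRNA read, and 0.44 and 0.77 per total read. Per total read, 75 members were called higher and 25 lower in control sperm, where 46.3% of all sequences were higher and 44% lower. In DCHP sperm it was 73 and 25, beside 48.2% and 43.1% of all. Per read of this second miRNA count, 87 were higher and 1 lower in control (79.3% and 2.36% of all), and 89 were higher and 1 lower in DCHP sperm (80.6% and 2.19% of all). Of the 676 members, 70 had 10 reads in 4 libraries of each method, and the others passed the read minimum through 1 method or through libraries of both together, so the calls that follow are a description too. With every sequence of the read minimum tested, 604 members were called in control and 634 in DCHP sperm per miRNA read, where 83.2% and 88.1% of all were called. Per total read these were 631 and 636, where 85.9% and 89.5% of all were called, with 315 members higher and 316 lower in control and 320 higher and 316 lower in DCHP sperm. Of all sequences 35.4% were higher and 50.5% lower in control, and 38.9% higher and 50.6% lower in DCHP sperm.

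For member 1 the log2 difference between PANDORA-seq and traditional libraries was 6.23 ± 0.862 (SE) in control (adjusted p = 2.06e-09 by edgeR's quasi-likelihood test) and 6.75 ± 0.905 in DCHP sperm (adjusted p = 3.66e-06). Both lay above the median of all sequences. Member 9, the 16-nt sequence of end 3, had 3.10 ± 0.722 and 3.42 ± 0.516, close to the median of all sequences. Per total read its differences were 0.82 and 0.86, and with TMM factors 0.30 and 0.90, all under 2-fold and not called. Members 2, 6 and 11 were lower in PANDORA-seq by this test, with log2 differences of -3.58, -3.83 and -2.79 in control and -2.51, -3.52 and -1.81 in DCHP sperm. Members 6 and 11 had entered the table through the traditional libraries alone, so for them the direction is a description. Per miRNA read of 20 to 24 nt, on hairpins of mostly that length, the sign turned for members 2, 6 and 11. Members 2 and 11 in DCHP sperm were then called higher, as was member 11 in control sperm. Member 2 in control and member 6 in both exposures were not called there.

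The sequences with the largest differences had next to no reads in the other method and passed the read minimum through the method in which they are high, so their order is a description. The most raised member in PANDORA-seq was a 29-nt sequence of end 19, and 2 sequences of end 9 came next in DCHP sperm:
end 19, 29 nt: gatgtccggggctgaacgaggaattcCCA
end 9, 24 nt: tgtatgtgcttggctgaggagCCA
The 29-nt sequence averaged 5.75 RPM in PANDORA-seq control and 5.33 RPM in PANDORA-seq DCHP libraries. No read of it was found in the 10 traditional libraries, which allows up to 0.0155 RPM over the control and 0.0174 RPM over the DCHP libraries (3 counts of the summed total, counting error only). The 24-nt sequence was at 9.45 and 7.68 RPM in PANDORA-seq and 0.120 and 0.0265 RPM in traditional libraries. A 44-nt single-base variant of member 2 was among the most lowered in both exposures. It averaged 4.47 and 5.28 RPM in traditional libraries, had no read in the 4 PANDORA-seq control libraries (up to 0.0198 RPM), and averaged 0.020 RPM in PANDORA-seq DCHP libraries. The other most lowered members were 26 to 29 nt long and had 1.57 to 6.37 RPM in traditional and at most 0.0206 RPM in PANDORA-seq libraries.

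No member was called between control and DCHP libraries. In PANDORA-seq 80 members were tested among 20000 sequences, and 0 were called, where 0.01% of all sequences were. At an unadjusted p under 0.05 there were 4 members and 1316 of all sequences by edgeR. DESeq2 called 0 members and 0.7% of all sequences, with 5 members and 1658 of all sequences under that p. In traditional libraries 33 members were tested and 0 were called, where 0% of all sequences were, with 0 members and 709 of all sequences at an unadjusted p under 0.05 by edgeR. DESeq2 called 0 members and 0.095% of all sequences there, with 2 members and 817 of all sequences under that p. The median log2 difference of the tested members was 0.13 in PANDORA-seq and 0.13 in traditional libraries, beside 0.18 and 0.07 over all sequences. With every sequence of the read minimum tested, 0 of 608 members in PANDORA-seq and 0 of 663 in traditional libraries were called, where 0.612% and 0% of all were. Whether the DCHP effect differed between the methods was tested for 11 members and 0 were called, beside 0% of the 6677 sequences tested. At an unadjusted p under 0.05 there were 0 of the 11 members and 333 of all. Member 2 in PANDORA-seq had a log2 difference of 1.503 ± 0.487 (adjusted p = 0.663, edgeR's quasi-likelihood test). Member 4 in traditional libraries had one of -1.26 ± 0.794 (adjusted p = 0.9999 by edgeR's quasi-likelihood test). Member 5 in PANDORA-seq was at 18.1 to 30.1 RPM in control and 28.6 to 80.5 RPM in DCHP libraries, with a log2 difference of 1.18 ± 0.403 (adjusted p = 0.692).

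Where reads stopped and began at the 6 numbered ends was described in 3 ways. These were the share of CCA-ending reads of 18 nt or shorter, the share of longer reads with another base at the 19th position from the end, and the share of reads with the whole CCA among those ending with none, C, CC or CCA. The CCA-ending reads behind these shares are also those that chose the members, so no test is given. At end 3 short reads made up 24.6% ± 3.83 and 24.002% ± 7.34 in PANDORA-seq and 64.6% ± 10.7 and 67.6% ± 8.06 in traditional libraries, with no overlap between methods in either exposure. At end 6 the whole CCA made up 23.002% ± 3.48 and 24.2% ± 6.45 in PANDORA-seq and 8.72% ± 3.40 and 7.84% ± 1.498 in traditional libraries. At end 1 it made up 49.4% ± 11.5 and 41.1% ± 12.4 against 28.6% ± 13.0 and 18.02% ± 10.9, and the ranges of the methods overlapped in both exposures. At end 5 it made up 51.9% and 54.6% in PANDORA-seq against 32.7% and 41.6% in traditional libraries, with overlapping ranges in DCHP sperm. At end 3 the order was the opposite, with 7.87% and 7.70% against 10.1% and 11.9%, and so it was at end 4, with 9.31% and 11.5% against 13.8% and 17.5%, but at both ends the ranges of the methods overlapped. At end 2 it was between 0.771% and 1.07% in the 4 group means. Another base at the 19th position had group means of 0.0496% to 0.396% in PANDORA-seq and 0% to 1.32% in traditional libraries over the 6 ends. The upper value of 1.32%, at end 5 in traditional control, rests on 5 of 76 reads in 1 library, while the other 4 libraries had 0 of 20 to 83 reads.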

How the data were processed

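Sperm small RNA of 19 libraries was analysed. For each library the authors deposited read counts per distinct cleaned sequence of 15 to 45 nt, without normalization. The methods of the study name the SPORTS software for analysing the raw reads, settings of adapter removal are not given in the sources used here, and the labels name the build mm10. The members and gene lists were chosen with earlier results of these data known.

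Each sequence was matched in the sense direction, allowing 1 mismatch, to 6109 small RNA transcripts of GENCODE M21 (GRCm38), with CCA added to mitochondrial tRNAs. No genome, 28S rRNA or complete tRNA set was used. Counts were divided by total reads (RPM). Single sequences were tested by glmQLFit and glmQLFTest of edgeR 4.0.16 (R 4.3.3), with 2198 hairpins giving the miRNA total. DESeq2 1.42.0 was an alternative. The edgeR fits were also run on simulated counts in which few sequences changed. Between methods most sequences were called, so the simulation does not cover those comparisons. The rule for naming took the 12 highest members, the 6 highest ends, and up to 3 called members of largest change in each direction. Permutation tests of the shares at the 6 ends had been planned and are not reported, since the shares rest on reads that chose the members. Deviations of same-numbered DCHP libraries of both methods correlated at r = 0.12 to 0.32 over 5 pairs, each above the limit of 0.1. Libraries of different numbers were not correlated, so whether the numbers pair libraries was not tested. Control libraries of both methods gave 0.053 to 0.18 and did not meet the limit in every pair. The values printed are from fits without the replicate numbers, and the fit with these numbers as a block is an alternative. Counts of 0 were given a limit of 3 counts.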

Additional observations from a re-analysis of the deposited data

Results flagged for a closer look

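In 11 of 96 groups of libraries 1 library lay far above the others. The limits used flag about 1 in 20 groups of independent, normally distributed values. The groups here overlap, since named members lie within named ends, so the flags are a description and not an excess over chance. The traditional DCHP library 2 had 63.9 RPM of member 1 against 4.76 to 17.2 RPM in the other 4, and 15.7 RPM of member 3 against 2.30 to 5.27 RPM. The same library had 7019 RPM of reads with the T-arm motif against 849 to 1422 RPM. The traditional control library 3 had 2893 RPM of these reads against 704 to 979 RPM, 20.7 RPM at end 4 against 6.45 to 10.1 RPM, and 9.85 RPM of member 5 against 1.20 to 2.20 RPM. The traditional control library 1 had 1.67 RPM of member 8 against 0.192 to 0.382 RPM. The traditional DCHP library 4 had 1.08 RPM of member 12 against 0 to 0.0926 RPM. The PANDORA-seq DCHP library 5 had 1.43 RPM of member 6 against 0.486 to 0.628 RPM. In the same library 29.998% of the reads with the T-arm motif stopped with no tail, against 21.7% to 24.03% in the others. The PANDORA-seq control library 3 had 0.580% of member 2 among both forms at base 43, against 0.132% to 0.154% in the others.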

How the results depend on the processing

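Between control and DCHP libraries 0 members were called under each alternative run, namely other library sizes, TMM factors, all sequences of the read minimum, the threshold of 0.05, DESeq2, other definitions of the members and each library left out. Of all 20000 sequences in PANDORA-seq, 39 were called with miRNA reads of 20 to 24 nt as library size. With total reads, TMM factors or the threshold of 0.05, 0 of all were called, and with 1 library left out 0 to 4 were. In traditional libraries 0 of all 20000 were called in each of these runs. The count of 0 members was thus near the share over all sequences. The test of the difference between methods was repeated with total reads, with all sequences and at 0.05, and called 0 members and 0 of all sequences. With the replicate block, 0 members were called in both exposure comparisons. Of all 20000 sequences, 0 were called there in PANDORA-seq and 2 in traditional libraries. Between methods 98 members were called in control and 99 in DCHP sperm, where 28889 and 30534 of all 33323 sequences were called. The block thus moved no count of called members by over 1.5 times. The counts between methods stayed at 98 to 99 when any library was left out, where 29022 to 30369 of all sequences were called. With every sequence tested, 604 and 634 of 676 members were called in control and DCHP sperm per miRNA read and 631 and 636 per total read, the latter an alternative chosen after seeing the data. The sign of members 2, 6 and 11 turned with miRNA reads of 20 to 24 nt as library size, to log2 differences of 1.14, 1.12 and 1.98 in control and 2.20, 0.87 and 2.46 in DCHP sperm, of which member 2 in control and member 6 in both were not called. The summed level ratio of PANDORA-seq to traditional was 12.3 and 11.5 per miRNA read, 388 and 272 per miRNA read of 20 to 24 nt, and 3.08 and 2.62 with only exact matches left out. Over the 146 members of ends where most longer reads did not go on past the CCA, it was 0.169 and 0.133, which reversed the order. This alternative was chosen after seeing the data, and end 2 held 102 of the 139 RPM of these members. Selecting members whose tail the genome does not encode was not run, because no genome was at hand. Depth limits single members, since the median member was at 0.24 RPM.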
